A study of Mus musculus with 8 samples.

Results

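Mitochondria fuse and divide through a small set of proteins, and the genes considered here were 10 of these, chosen by their known function: Mfn1, Mfn2, Opa1, Oma1, Yme1l1, Dnm1l, Fis1, Mff, Mief1 and Mief2. All 10 were found among the 26586 genes listed, with Mief1 and Mief2 matched through their older symbols Smcr7l and Smcr7, and all 10 were among the 13873 genes that passed the filter on low counts. The counts came from RNA-Seq of primordial follicles of postnatal day 3 mouse ovaries on a C57Bl/6 x CBA background, and the study asked whether transcripts of the follicles differed in the third generation after mitochondrial supplementation. The mito-supplemented samples (n = 4) were from the third generation of offspring of founders that grew from oocytes injected with mitochondria of egg precursor cells, together with a spermatozoon, while the control samples (n = 4) are described by the labels only as controls of the same background, age and tissue. A further control library, which the study set aside, was not analysed here. Total counts were 17658559, 13917412, 18219362 and 10370045 in control 1 to 4 and 19760763, 13370911, 16116434 and 13276462 in mito 1 to 4, where the number is the replicate number of the label. Ribosomal RNA genes took 75.3% of the counts of control 4, which left 2559876 counts on all other genes, against 7280214 to 15778975 in the other libraries. The sample titles call each library a biological replicate, and the study's heat map caption gives n = 4 for supplemented and n = 4 for control mice. Label codes of some samples share their first part, as 280 for control 1 and 2, 301 for control 3 and 4, and C56 for mito 1 to 3. The code of mito 4 begins with C60, which no other sample shares. Where counts are summed by shared label code below, mito 4 alone therefore stands beside the sum of mito 1 to 3. The labels do not say what a shared code stands for. The p-values below take the libraries as separate replicates and measure only the spread between these samples, which may be in part technical.

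As background, the mitofusins, encoded by Mfn1 and Mfn2, join the outer membranes of neighbouring mitochondria, and OPA1 joins the inner membranes and holds the cristae in shape, with the proteases OMA1 and YME1L1 cutting OPA1 into its short forms. Division is carried out by DRP1, the product of Dnm1l, a GTPase that is drawn from the cytosol to the outer membrane by MFF, by MiD51 and MiD49, the products of Mief1 and Mief2, and, to a debated extent, by FIS1. The mitochondria of the oocyte are the source of those of the embryo, and oocytes of mice need both fusion and division, since loss of Mfn1 or of Dnm1l in the oocyte impairs follicle growth and fertility.

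The comparison of mito-supplemented with control samples showed no called difference in any of the 10 genes. By edgeR's quasi-likelihood test and the Benjamini-Hochberg method, 0 of 10 had an adjusted p under 0.05, as did 0 of the 13873 genes tested (0%), where the lowest adjusted p was 0.418. At an unadjusted p under 0.05 there was 1 of the 10, Mief2, against 1069 of all genes tested (7.71%), and it was on the lower side, where 333 of all genes tested stood (2.4%). Other tools also called 0 of the 10, while over all genes edgeR's likelihood ratio test called 58 (0.418%), DESeq2 called 141 (1.02%) and limma-voom with sample quality weights called 2913 (21%). The fitted level was lower in mito-supplemented samples for 9 of the 10 genes, against 55.1% of all genes tested, and only Dnm1l was higher. With library size in place of TMM factors, 6 of 10 were lower. The median log2 fold change of the 10 was -0.44, beside -0.10 over all genes tested, and with library size only these medians were -0.14 and 0.17. Without control 1 the median of the 10 was -0.27, and without mito 4 it was -0.20. The levels of the 4 mito-supplemented and the 4 control libraries overlapped for all 10 genes, whereas they did not overlap for 698 of all genes tested (5.03%).

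**Figure D1:**
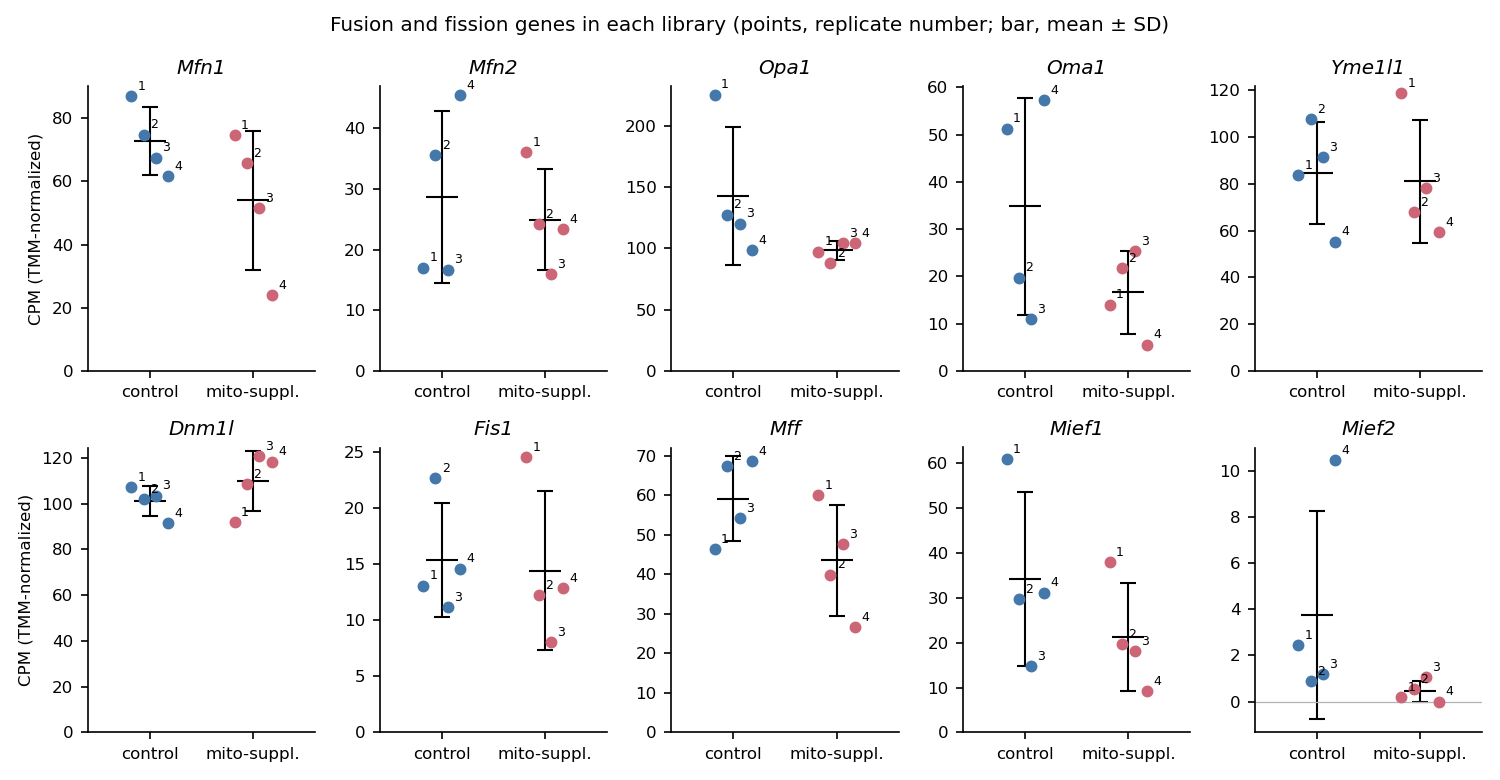
Level of each fusion and fission gene in CPM (TMM-normalized), with 1 point per library marked by its replicate number and bars for the mean ± SD of 4 libraries per group. The 2 groups overlap for every gene, Opa1 is highest in control 1 at 225 CPM, and Mief2 is highest in control 4 at 10.5 CPM.

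Among the fusion genes, Opa1 (chromosome 16 of GRCm38, 29579334 to 29654884, plus strand), which encodes the inner membrane GTPase, had 225, 127, 120.2 and 98.7 CPM (TMM-normalized counts scaled to a common library size) in control 1 to 4 and 97.2, 87.7, 104 and 104 CPM in mito 1 to 4. Control 1 stood far above the rest, control 4 lay among the mito-supplemented libraries, and all 4 mito-supplemented libraries lay below control 1 to 3. The mean level of the controls was 143 ± 56.3 CPM and that of the mito-supplemented libraries 98.4 ± 7.83 CPM (SD, n = 4 in each group). The log2 fold change was -0.54 (standard error, SE, 0.33, Benjamini-Hochberg adjusted p = 0.697 by quasi-likelihood in edgeR), and the exact permutation test on log2 CPM gave p = 0.0857 (two-sided, 4 against 4, where the smallest possible p is 0.0286). Without control 1 the log2 fold change was -0.21, so that this library carried much of the difference. The value from limma-voom with sample quality weights was -0.35.

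Mfn1 (chromosome 3, 32529465 to 32579239, plus strand), a mitofusin, had 87.1, 74.8, 67.6 and 61.8 CPM in control 1 to 4 and 74.6, 65.7, 51.6 and 24.0 CPM in mito 1 to 4. The controls kept within a narrow band, and only mito 3 and mito 4 lay below it. The log2 fold change was -0.43 (SE 0.38, Benjamini-Hochberg adjusted p = 0.766 in the same edgeR test), and without mito 4, the lowest library, it was -0.16. It was -0.21 with library size only and -0.72 with counts summed by shared label code. Mfn2 (chromosome 4, 147873599 to 147904704, minus strand), the other mitofusin, had 17.0, 35.5, 16.7 and 45.4 CPM in control 1 to 4 and 36.1, 24.2, 15.9 and 23.4 CPM in mito 1 to 4. The high and low libraries of Mfn2 were spread over both groups, with the lowest and the highest library 2.85-fold apart. Its log2 fold change was -0.20 (SE 0.45, Benjamini-Hochberg adjusted p = 0.900 in the same edgeR test), but 0.24 with library size only, 0.13 without control 4, -0.01 without mito 3 and -0.41 without mito 1.

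Of the proteases that cut OPA1, Oma1 (chromosome 4, 103313812 to 103371868, plus strand), whose product is activated by stress, had 51.3, 19.7, 10.9 and 57.2 CPM in control 1 to 4 and 14.02, 21.7, 25.3 and 5.56 CPM in mito 1 to 4. It was high in control 1 and control 4, while control 2 and control 3 lay within the mito-supplemented range, and the highest library held 10.3 times the level of the lowest. The log2 fold change was -1.06 (SE 0.63, Benjamini-Hochberg adjusted p = 0.686 by quasi-likelihood in edgeR), and limma-voom with sample quality weights, which gives less weight to libraries that depart from the rest, gave 0.46. Without control 4 it was -0.69, as it was with library size only. Yme1l1 (chromosome 2, 23156369 to 23199260, plus strand), the protease that cuts OPA1 without stress, had 83.9, 108, 91.5 and 55.3 CPM in control 1 to 4 and 119, 67.8, 78.3 and 59.4 CPM in mito 1 to 4. Its highest levels were in mito 1, control 2 and control 3, and its lowest in control 4 and mito 4. The groups differed by a log2 fold change of -0.06 (SE 0.35, Benjamini-Hochberg adjusted p = 0.962 in the same edgeR test), which turned to 0.17 with library size only and to 0.09 without mito 4, and was -0.28 without mito 1.

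Dnm1l (chromosome 16, 16312230 to 16358959, minus strand), the gene of the GTPase that divides mitochondria, was the steadiest of the 10. It had 107, 102, 103 and 91.6 CPM in control 1 to 4 and 92.0, 109, 121 and 118 CPM in mito 1 to 4. All libraries lay close together, with a 1.32-fold difference between the highest and the lowest, and the groups overlapped, although mito 2 to 4 held the 3 highest levels. The mean level of the controls was 101 ± 6.74 CPM and that of the mito-supplemented libraries 109.9 ± 13.0 CPM (SD, n = 4 in each group), and the log2 fold change was 0.12 (SE 0.27, Benjamini-Hochberg adjusted p = 0.898 by quasi-likelihood in edgeR). With library size only the log2 fold change was 0.40, and without mito 1 it was 0.23. It was 0.21 with upper quartile scaling and 0.19 with counts summed by shared label code. The exact permutation test gave p = 0.257 (two-sided, n = 4 each).

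The SD of log2 CPM of Dnm1l over the 8 libraries was 0.15, and only 19 of the 13873 genes tested (0.137%) had a smaller SD. The median SD of all genes tested was 0.98. Of the 901 other genes whose mean log2 CPM was within 0.5 of that of Dnm1l, 10 (1.11%) had a smaller SD, beside a median of 0.53 among genes of this level. Dnm1l was picked out for this after its values were seen, and the count rests on a scaling that sets each library by its typical genes. With library size only, Dnm1l ranged from 44.8 to 166 CPM and 1360 genes (9.80%) were steadier, while with RLE size factors, upper quartile scaling and ribosomal RNA genes removed the counts were 15, 84 and 23. With 1 library left out in turn, between 10 and 68 genes were steadier, the latter without control 1. In gene annotation, the antisense gene Gm49521 overlaps Dnm1l, and reads of the 2 cannot be told apart where strand was not used in counting. The other 9 fusion and fission genes were nearer to the spread usual for their level, with between 14.6% (Fis1) and 78.6% (Oma1) of the genes of like level steadier than each.

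**Figure D2:**
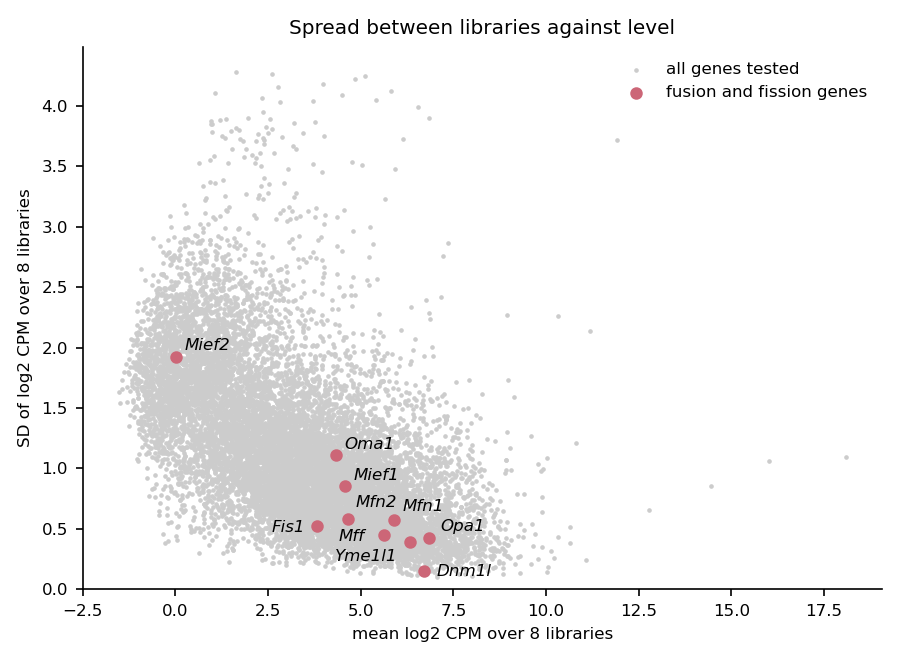
SD of log2 CPM over the 8 libraries (vertical axis) against mean log2 CPM (horizontal axis), with a grey point for each of the 13873 genes tested and a red point for each fusion and fission gene. Dnm1l, at an SD of 0.15, lies at the lower edge of the genes of its level, while Mief2, at 1.93, lies in the wide band of genes with low counts.

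The receptors of DRP1 had lower levels than Dnm1l per length and were more spread. Mff (chromosome 1, 82724890 to 82752394, plus strand), which encodes the mitochondrial fission factor, had 46.3, 67.4, 54.2 and 68.7 CPM in control 1 to 4 and 60.02, 39.9, 47.6 and 26.6 CPM in mito 1 to 4. The groups overlapped, with mito 2 and mito 4 below every control, and the log2 fold change was -0.44 (SE 0.35, Benjamini-Hochberg adjusted p = 0.745 by quasi-likelihood in edgeR). It was -0.24 without mito 4 and -0.08 with library size only. Fis1 (chromosome 5, 136953275 to 136966234, plus strand) had between 11.2 and 22.7 CPM in the control and between 8.08 and 24.6 CPM in the mito-supplemented libraries, with the highest levels in mito 1 and control 2. Its log2 fold change of -0.09 (SE 0.47) was 0.18 with library size only, 0.16 without control 2, 0.13 without mito 3 and -0.45 without mito 1. The gene C430014B12Rik overlaps Mff on the opposite strand.

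Mief1 (chromosome 15, 80234018 to 80253371, plus strand), the gene of MiD51, had 61.0, 29.8, 14.8 and 31.2 CPM in control 1 to 4 and 37.9, 19.7, 18.1 and 9.18 CPM in mito 1 to 4. Control 1 was the highest library and mito 4 the lowest, and the rest of both groups were intermixed. The log2 fold change was -0.69 (SE 0.54, Benjamini-Hochberg adjusted p = 0.744 by quasi-likelihood in edgeR), and without control 1 it was -0.23. It was -0.40 without mito 4, -1.09 without mito 1 and -0.06 in limma-voom with sample quality weights. The annotated gene AC140267.1 overlaps Mief1 on the same strand, so that counts of Mief1 may depend on how reads in any shared exons were treated.

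Mief2 (chromosome 11, 60728398 to 60732951, plus strand), the gene of MiD49, was the least abundant of the 10, with 60, 11, 21 and 53 counts in control 1 to 4 and 4, 8, 23 and 0 counts in mito 1 to 4. These were 2.46, 0.872, 1.20 and 10.5 CPM in the controls and 0.194, 0.554, 1.04 and 0 CPM in the mito-supplemented libraries, where a count of 0 in mito 4 allows up to 0.209 CPM by counting error alone. Control 4, the library with the fewest counts outside ribosomal RNA, held by far the highest level, mito 1, mito 2 and mito 4 lay below every control, and mito 3 lay within the control range. The means were 3.75 ± 4.53 and 0.448 ± 0.459 CPM (SD, n = 4 each), and the log2 fold change was -3.01 (SE 1.31, unadjusted p = 0.0440, Benjamini-Hochberg adjusted p = 0.636 by quasi-likelihood in edgeR). Over the 19 alternatives tried its adjusted p ranged from 0.253 to 0.971. The exact permutation test on log2 CPM gave p = 0.0571 (two-sided, n = 4 each). Without control 4 the log2 fold change was -1.70, with an unadjusted p of 0.226 in the edgeR test, and limma-voom with sample quality weights gave -1.12.

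**Figure D3:**
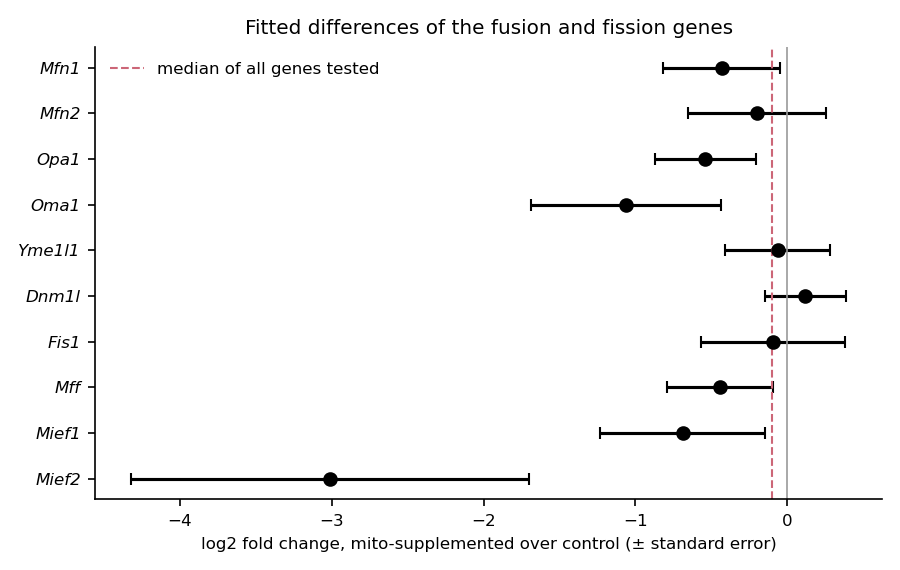
Fitted log2 fold change of mito-supplemented over control samples for each fusion and fission gene, with bars for the standard error from edgeR's quasi-likelihood fit (n = 4 each) and a dashed line at -0.10, the median of all genes tested. Mief2 has the largest difference, -3.01, and the widest error, 1.31, and Dnm1l alone lies above 0.

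Levels were compared between genes per length, as the mean CPM per kb of annotated exon over the 8 libraries (SD, n = 8). Dnm1l stood at 20.3 ± 2.06 CPM per kb, followed by Opa1 at 15.3 ± 5.61, Oma1 at 12.0 ± 8.75, Mfn1 at 10.4 ± 3.11, Yme1l1 at 10.3 ± 2.81 and Fis1 at 8.70 ± 3.34 CPM per kb. Mff at 5.26 ± 1.46, Mfn2 at 5.16 ± 2.11, Mief1 at 3.42 ± 2.03 and Mief2 at 0.773 ± 1.27 CPM per kb closed the order. Without control 4 the mean of Mief2 was 0.333 CPM per kb, a check added after seeing the data. Between neighbours in this order the mean difference within a library was larger than its SD only from Fis1 to Mff (3.44 ± 2.83) and from Mief1 to Mief2 (2.64 ± 2.13). Dnm1l was above Opa1 in 7 of 8 libraries, all but control 1, and their difference of 4.96 ± 5.84 CPM per kb was within its SD. Oma1 was above Mfn1 in only 3 of 8 libraries, and it stood at 16.2 CPM per kb in controls but at 7.76 in mito-supplemented samples, below Yme1l1 at 10.1, Mfn1 at 8.83 and Fis1 at 8.42 there. With the longest transcript in place of the union of exons, Dnm1l, Opa1 and the 4 genes from Mff to Mief2 kept their places, while Yme1l1 (17.6 CPM per kb), Fis1 (15.7), Mfn1 (13.9) and Oma1 (13.4) followed Opa1 in this order. With that length Mff stood at 13.1 CPM per kb, close to Oma1 and far above Mfn2 at 6.17, so that the gap from Fis1 to Mff and the closeness of Mff to Mfn2 depend on the length used.

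**Figure D4:**
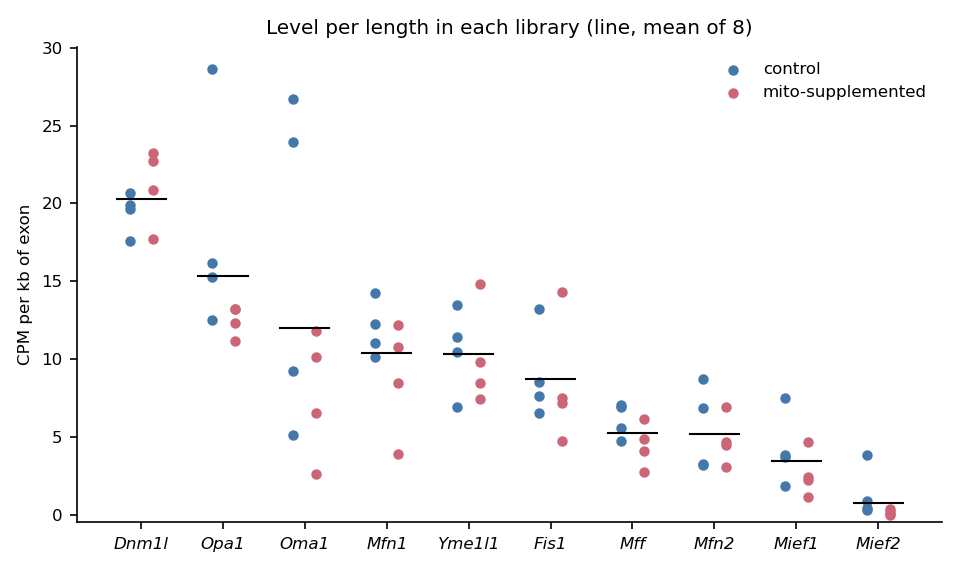
Level per length of each fusion and fission gene in CPM per kb of exon (vertical axis), with a point for each control (blue) and mito-supplemented (red) library and a line at the mean of 8. Dnm1l has the highest mean, 20.3 CPM per kb, and Mief2 the lowest, 0.773, while Oma1 ranges from 2.59 to 26.7.

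Within a library, ratios between the genes do not depend on the scaling of that library. The ratio of Opa1 to Dnm1l per length was 1.39, 0.825, 0.767 and 0.712 in control 1 to 4 and 0.698, 0.534, 0.571 and 0.582 in mito 1 to 4. Every mito-supplemented library lay below every control, by a narrow margin between control 4 and mito 1, and control 1 stood apart. This was the only ratio of the 7 examined whose groups did not overlap, the 7 were chosen with values in view, and no test was made of it. The ratio of Mfn1 to Mfn2 per length ranged from 1.16 to 4.35 in controls and from 0.872 to 2.75 in mito-supplemented libraries, with Mfn1 the higher of both mitofusins in all libraries but mito 4. The ratio of Oma1 to Yme1l1 was the most variable of those without a count of 0, from 0.350 in mito 4 to 3.87 in control 4.

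The genes with the profile nearest to that of a fusion or fission gene over the 8 libraries were found by the root mean square difference of log2 CPM, each centred on its own mean. For Dnm1l these were Csnk1g1 (0.09) and Prdm2 (0.09), beside a deviation of Dnm1l from its own mean of only 0.14, which is also how far from it a gene with no variation would lie. For Opa1 they were Stk25 (0.11) and 2610021A01Rik (0.12), and for Mfn2 they were 0610009D07Rik (0.24) and Fam105b (0.24), beside own deviations of 0.40 and 0.54. The median over all genes tested was 0.92 for Dnm1l, 1.006 for Opa1 and 1.09 for Mfn2.

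Other genes of mitochondrial dynamics were read from lists. Of 18 modifiers of fusion and fission, 16 were tested (Pld6 and Gdap1 were not), with 7 of them higher in the mito-supplemented group and 9 lower, and 0 had an unadjusted p under 0.05 in the quasi-likelihood test. In limma-voom with sample quality weights 8 of these 16 had such a p and 4 were called, beside 37.6% and 21% of all genes in that fit. Their median log2 fold change was -0.24, which turned to 0.09 with library size only. It was nearer to 0 with a library left out, at -0.14 without control 1, -0.09 without control 2, -0.12 without control 4, -0.15 without mito 1, -0.10 without mito 3 and -0.15 without mito 4. It was also nearer to 0 with upper quartile scaling (-0.15) and the replicate block (-0.11), but -0.48 with counts summed by shared label code and -0.33 with the loose filter. The lowest p-values were those of Senp5, a protease that removes SUMO from DRP1, with a log2 fold change of -0.85 (SE 0.43, unadjusted p = 0.0763 in the edgeR test), and of Inf2, a formin that builds actin at sites of division, with 1.03 (SE 0.61, unadjusted p = 0.119 in the edgeR test). Without control 1 the log2 fold change of Senp5 was -0.36, and in limma-voom it was -0.18. The adjusted p of Inf2 by quasi-likelihood in edgeR was 0.685, and in limma-voom with sample quality weights it was 0.0435, over a range of 0.0435 to 0.971 among the alternatives.

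Of 16 genes that shape the inner membrane or keep its proteins in order, all were tested, 4 were higher and 12 lower, and their median log2 fold change was -0.47 (-0.23 with library size only, -0.31 in limma-voom, -0.16 without control 1 and -0.21 without mito 4). In this list 1 gene had an unadjusted p under 0.05 in the quasi-likelihood test and was lower, beside 7.71% of all genes tested (2.4% lower). This was Immt, the gene of mitofilin, which organizes the junctions of the cristae. The count was 0 without control 1, mito 2, mito 3 or mito 4 and with library size only, but 2 without control 4. The counts with a library left out were added after seeing the data. Immt had 224, 118, 143 and 103 CPM in control 1 to 4 and 92.3, 77.1, 86.2 and 80.9 CPM in mito 1 to 4. As for Opa1, control 1 was the highest library, but here every mito-supplemented library lay below every control. The log2 fold change was -0.81 (SE 0.33, unadjusted p = 0.0324, Benjamini-Hochberg adjusted p = 0.634 by quasi-likelihood in edgeR), and -0.51 without control 1. The adjusted p of Immt was 0.0321 in limma-voom with sample quality weights, the only alternative in which it was called and where 2 genes of the list were (beside 21% of all genes), and ranged from 0.0321 to 0.971 among the alternatives. Samm50, a partner of mitofilin in the outer membrane, had a log2 fold change of -0.90 (SE 0.43, unadjusted p = 0.0629 in the edgeR test), and -0.49 without control 1. Groups did not overlap for 2 of the 16 genes, beside 5.03% of all genes tested. The other of these 2 was Chchd10, named after its values were seen. It had 23.4 to 36.4 CPM in controls and 40.4 to 43.8 CPM in mito-supplemented libraries, and a log2 fold change of 0.38 (SE 0.31, unadjusted p = 0.251 in the edgeR test).

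Of 8 genes of mitochondrial transport along the cytoskeleton, all tested, 5 were higher and 3 lower, with a median log2 fold change of 0.11 (-0.07 without control 4 and -0.02 without mito 4, 0.03 without control 3, but 0.42 without control 1 and 0.23 without mito 1). In limma-voom with sample quality weights 2 of the 8 were called, beside 21% of all genes, and these were not Mtx1 or Armcx3. Mtx1, which encodes the outer membrane protein metaxin, had 9.89, 10.3, 8.64 and 16.6 CPM in control 1 to 4 and 6.26, 4.36, 5.99 and 1.88 CPM in mito 1 to 4. Its groups did not overlap, and the log2 fold change was -1.29 (SE 0.56, unadjusted p = 0.0426, Benjamini-Hochberg adjusted p = 0.636 by quasi-likelihood in edgeR). Mtx1 was the 1 gene of the 8 whose groups did not overlap, beside 5.03% of all genes tested. It was also the 1 with an unadjusted p under 0.05 in this test, beside 7.71% of all genes tested (2.4% lower). With library size only the log2 fold change of Mtx1 was -0.87 (unadjusted p = 0.218 in the edgeR test). Armcx3, which encodes an outer membrane protein bound to the transport machinery, had a log2 fold change of 1.10 (SE 0.55, unadjusted p = 0.0733 in the edgeR test). Of 15 genes taken as markers of mitochondrial content, 2 were higher and 13 lower, with 0 at an unadjusted p under 0.05 in the quasi-likelihood test and a median log2 fold change of -0.23 (-0.07 with library size only, where 8 of 15 were lower, -0.15 with upper quartile scaling, -0.10 without mito 2 and -0.34 without mito 1). Vdac2, a pore of the outer membrane, had -0.52 (SE 0.33), or -0.24 with library size only. Tfam, which packages mitochondrial DNA, had -0.60 (SE 0.40), or -0.37 without control 1. The summed level of the 15 markers ranged from 1307 to 1464 CPM in controls and from 1009.6 to 1523 CPM in mito-supplemented libraries, so that the libraries overlapped.

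Summed levels of cell type markers differed widely between the libraries, and in bulk RNA, fewer cells of a type and less RNA per cell cannot be told apart. The 12 oocyte markers summed to 2478, 166, 119 and 503 CPM in control 1 to 4 and to 252, 152, 627 and 114 CPM in mito 1 to 4. By CPM, which does not correct for transcript length, Kit was the highest over all libraries and in 5 of 8, while Zp2 had the higher mean in mito-supplemented samples. The leading genes of the other lists are also named by CPM. None was at 0 counts in any library, and 12 of 12 were lower in mito-supplemented samples, with 1 at an unadjusted p under 0.05 (0 to 3 with a library left out). Of all genes tested, 55.1% were lower, and 2.4% were lower at such a p. The count of 12 lower rests on control 1, without which, in a check chosen after seeing the data, 3 of 12 were lower. In limma-voom with sample quality weights 1 of 12 was lower, and with the replicate block 9 were. Control 1, with by far the most oocyte marker counts, was also the highest library for Mfn1, Opa1 and Mief1. The part of oocyte content in the levels of these 3 genes was not tested, and the values without control 1 are those given above for Opa1 and Mief1 and -0.32 for Mfn1.

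The 10 granulosa markers, led by Wt1 in 7 of 8 libraries, were higher in mito-supplemented samples for 9 of 10, with 3 at an unadjusted p under 0.05 (6 without control 4). Among these 9, Nr5a2 had a log2 fold change of only 0.0008. In the likelihood ratio test, in DESeq2 and with RLE size factors or the replicate block 8 of 10 were higher, and with library size only 10 were. With library size only, or with the replicate block, the count with an unadjusted p under 0.05 was 5. Over all genes tested, 736 of 13873 were higher at such a p, and 1324 of 14743 without control 4. With library size only 1288 of 13873 were, with the replicate block 730 and with upper quartile scaling 846. With counts summed by shared label code 866 of 15705 genes were higher at such a p. The granulosa markers summed to 265, 189.7, 284 and 899.6 CPM in control 1 to 4 and to 456, 1136, 787 and 1189.8 CPM in mito 1 to 4. Markers of stroma, led by Col3a1 in 4 libraries and by Col1a1 in the other 4, were higher for 9 of 9 genes (7 without mito 4), with 0 at an unadjusted p under 0.05 (6 without control 4 and 1 without mito 1). Such a p was found for 5 with library size only, and for 3 with the replicate block or counts summed by shared label code. The stroma markers summed to 341 to 2225 CPM in controls and 961 to 2502 CPM in mito-supplemented libraries. Those of the surface epithelium, led by Upk3b, were higher for 9 of 9, with 5 at an unadjusted p under 0.05, and summed to 30.4 to 331 CPM in controls and 264 to 728 CPM in mito-supplemented libraries. The count of 5 was 1 without control 1 or without mito 2, 2 without control 2, control 3 or mito 4, and 9 without control 4. It was 7 with upper quartile scaling, and 8 with library size only, the replicate block or counts summed by shared label code. Over all genes, 788 of 14291 were higher at such a p without control 1, and 450 of 14493 without mito 2. In control 4, where Mfn2, Oma1, Mff and Mief2 had their highest levels, the granulosa, stroma and surface epithelium sums were the highest among the controls. The endothelial markers, led by Kdr, were higher for 6 of 7 tested, with 1 at an unadjusted p under 0.05 (2 without control 4), and summed to 26.2 to 227 CPM over the 8 libraries. The leukocyte markers, led by Lyz2 in only 4 of 8 libraries, were higher for 6 of 6, with 0 at such a p, and summed to 8.69 to 773 CPM. Without mito 1, in a check also chosen after seeing the data, 2 of 6 leukocyte markers were higher and 2 had such a p, beside 2003 of 14251 genes. With the replicate block 2 of 6 were higher and in limma-voom 1 was. All counts given here with a library left out were likewise added after seeing the data. The quasi-likelihood test in edgeR called 0 markers of any cell type. By limma-voom with sample quality weights, where 21% of all genes were called, 7 granulosa, 4 stroma, 9 surface epithelium, 2 endothelial, 1 leukocyte, 2 red cell and 0 oocyte markers were called. DESeq2 called 2 granulosa, 1 endothelial and 1 surface epithelium marker, beside 1.02% of all genes. The likelihood ratio test called 1 endothelial and 1 surface epithelium marker, beside 0.418% of all genes. The part of these cells in the differences of the fusion and fission genes was not tested.

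Red cell markers, of which 4 were tested, were the most uneven, with sums of 14.1, 4012, 2682 and 42.8 CPM in control 1 to 4 and 4952, 79.0, 21.8 and 20.9 CPM in mito 1 to 4. Slc4a1 had the highest CPM in all libraries but control 1, and Hba-a1, a globin gene, was at 0 counts in 7 of 8 libraries. The 3 libraries with high sums, control 2, control 3 and mito 1, were the same in which Yme1l1 had its highest levels. The leukocyte markers were also highest in these 3, with sums of 16.3, 139, 123 and 22.3 CPM in control 1 to 4 and 773, 12.6, 19.5 and 8.69 CPM in mito 1 to 4. Some of the listed genes of mitochondrial dynamics were also high in these 3 libraries, and the following were named after their values were seen. Trak2, an adaptor that links mitochondria to motor proteins, had 31.4, 750.0, 495 and 45.0 CPM in control 1 to 4 and 703, 49.6, 49.1 and 51.9 CPM in mito 1 to 4. Mtfr1, which encodes a regulator of fission, had 14.4, 116, 97.7 and 17.6 CPM in control 1 to 4 and 130.5, 25.4, 14.3 and 19.5 CPM in mito 1 to 4. Dnm2, the gene of the dynamin found at the plasma membrane, had 65.6, 213, 169.96 and 69.9 CPM in control 1 to 4 and 163, 93.3, 74.0 and 67.2 CPM in mito 1 to 4. In all 3 genes the same control and mito-supplemented libraries were high, and the part of red cells or of leukocytes in their levels was not tested. Against this background Dnm1l kept between 91.6 and 121 CPM with TMM factors. The oocyte marker sum differed 21.7-fold and the red cell marker sum 351-fold between the highest and lowest library. With library size only Dnm1l ranged from 44.8 to 166 CPM.

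**Figure D5:**
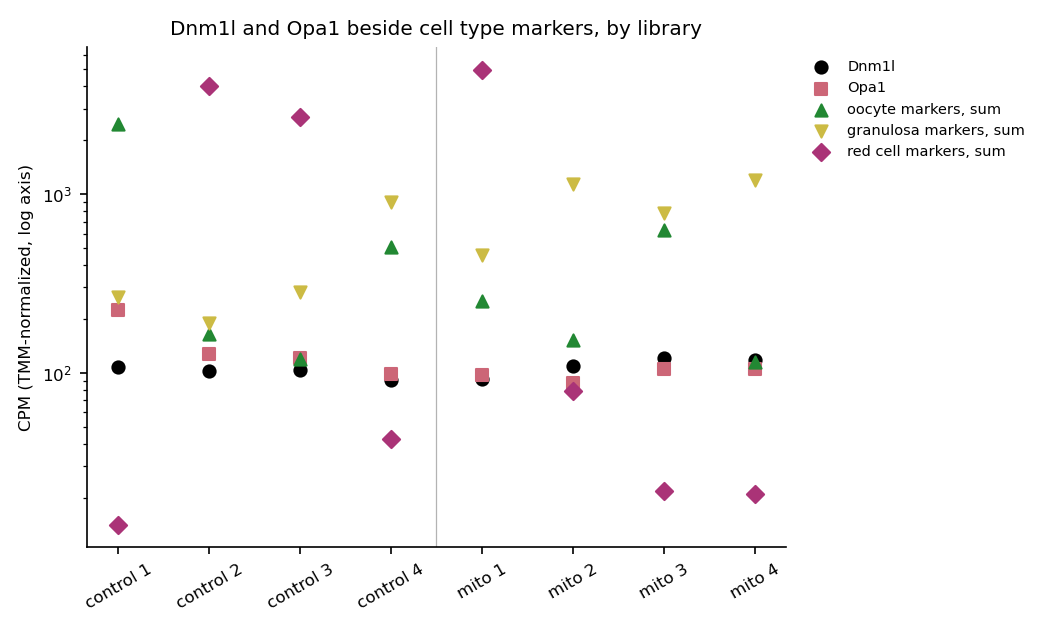
Level of Dnm1l and Opa1 and summed level of oocyte, granulosa and red cell markers in each library, in CPM (TMM-normalized) on a log axis, with 1 point per library and value. Dnm1l lies between 91.6 and 121 CPM throughout, Opa1 is highest in control 1 together with the oocyte markers at 2478 CPM, and the red cell markers reach 2682 CPM or more in control 2, control 3 and mito 1 and 79.0 CPM or less in the others.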

How the data were processed

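RNA-Seq reads were trimmed by the authors with Trim Galore 0.4.4, mapped to GRCm38 with STAR 2.5.3a and assigned to exons of annotated genes by featureCounts. The deposited table holds raw counts per gene symbol. Its annotation release, use of strand and treatment of multi-mapping reads are not given in the sources used here. Groups and replicate numbers were taken from the labels.

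The counts of all 8 libraries were analysed in R 4.3.3 with edgeR 4.0.16. TMM normalization, the default expression filter and the quasi-likelihood test between both groups without covariates were used, with Benjamini-Hochberg adjustment over all 13873 genes tested. An adjusted p under 0.05 was taken as a call. CPM values use TMM factors, and a prior count of 2 was added for log2 values. Single genes were also compared by exact permutation tests of log2 CPM. Alternatives were edgeR's likelihood ratio test, DESeq2 1.42.0, limma 3.58.1 (voom), other normalizations and filters, a replicate block, counts summed by shared label code, the longest transcript as length, and each library left out in turn. The scripts were tested on simulated counts. Exon lengths and coordinates are from GENCODE M21, and older symbols were matched through RefSeq synonyms.

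The genes, the lists and the cell type markers were chosen with earlier results of these data known. The rule for named genes took all 10 fusion and fission genes, from each other pathway list every gene with an unadjusted p under 0.05 or otherwise the lowest p-values up to 2 genes, and for Mfn2, Opa1 and Dnm1l the 2 genes of nearest profile. Genes outside this rule are said to be so. Limits for a count of 0 use 3 counts and cover counting error alone, because reads from amplified cDNA are not independent.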

Additional observations from a re-analysis of the deposited data

Results flagged for a closer look

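Of 61 groups of 4 libraries examined for a value far from the other 3, 10 held such a value on the scale on which the values are given, where chance gives about 3.05, and 0 did on the log2 scale. The level of Mief2 in control 4 was 10.5 CPM, beside 0.872 to 2.46 CPM in the other controls. The per-length ratio of Opa1 to Dnm1l in control 1 was 1.39, beside 0.712 to 0.825 in the other controls. Control 1 also held the oocyte marker sum of 2478 CPM, beside 119 to 503 CPM. In control 4 the summed markers stood above those of the other controls for granulosa cells (899.6 CPM, beside 189.7 to 284), stroma (2225 CPM, beside 341 to 656), endothelium (212 CPM, beside 26.2 to 43.2) and surface epithelium (331 CPM, beside 30.4 to 81.5). In mito 1 the red cell markers summed to 4952 CPM (20.9 to 79.0 in the other mito-supplemented libraries), the leukocyte markers to 773 CPM (8.69 to 19.5) and the genes of inner membrane shape and quality control to 503 CPM (390.4 to 409).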

How the results depend on the processing

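For the 10 fusion and fission genes, 177 of 190 fold changes under the 19 alternatives kept their direction, 13 reversed and 0 passed an adjusted p of 0.05. The 8 genes named from the other pathway lists by the rule reversed in 0 of their 19 alternatives. With library size only, the log2 fold changes of Mfn2, Yme1l1 and Fis1 turned to 0.24, 0.17 and 0.18, 4 of 10 genes were higher and 0 had an unadjusted p under 0.05, beside 1341 of all genes tested. With upper quartile scaling that of Yme1l1 was 0.013, 2 genes were higher and 0 had such a p, beside 1102 of all genes. With limma-voom and sample quality weights that of Oma1 was 0.46, 2 genes were higher, 0 had such a p, and over all genes 5222 had such a p and 2913 were called, beside 58 in the likelihood ratio test and 141 in DESeq2. With counts summed by shared label code Mfn2 was at 0.13 and Fis1 at 0.048, 3 genes were higher and 0 had such a p, beside 1178 of all genes, and with the loose filter of at least 1 count 0 had such a p, beside 1571 of all genes. With each library left out in turn, Mfn2 ranged from -0.41 to 0.13, Yme1l1 from -0.28 to 0.089 and Fis1 from -0.45 to 0.16, 1 to 3 genes were higher, 0 to 2 had an unadjusted p under 0.05, and over all genes 572 to 2003 did. Genes steadier than Dnm1l, by alternatives chosen after seeing the data, numbered 1360 with library size only, 84 with upper quartile scaling and 10 to 68 with a library left out. Of 12 oocyte markers, 3 were lower without control 1 and, of 6 leukocyte markers, 2 were higher without mito 1, also chosen after seeing the data. So were the counts of markers with an unadjusted p under 0.05 with a library left out, which were 0 to 3 for oocyte, 2 to 6 for granulosa, 0 to 6 for stroma, 1 to 2 for endothelial, 0 to 2 for leukocyte, 0 to 4 for red cell and 1 to 9 for surface epithelium markers, and the level of Mief2 per length, 0.333 without control 4. What caused these shifts was not tested.

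The labels do not say whether a shared replicate number pairs libraries of both groups. Deviations of libraries with the same number correlated at -0.24, -0.19, -0.33 and 0.22. Libraries of different number were not compared in this way, so these values cannot decide whether libraries were paired. With the replicate block 0 fusion and fission genes had an unadjusted p under 0.05, 0 were called and their median log2 fold change was -0.47, beside 981 of all genes with such a p, 0 called and a median of -0.03.

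The common biological coefficient of variation over all genes was 0.771, and control 4, with 2559876 counts outside ribosomal RNA, gives the least precise levels.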
